A study of Mus musculus with 7 samples.

Results

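The genes described here are Trp53, which encodes the tumour suppressor p53, and 9 genes whose transcription p53 can raise: Cdkn1a, Gdf15, Mdm2, Ccng1, Bax, Trp53inp1, Perp, Zmat3 and Bbc3. They were chosen by hand with their values on these same arrays already known, so the differences given for them between genotypes and with DMBA are a description and carry no test. Each is read by 1 probe, which makes 10 of the 34967 gene probes on the array and 10 of the 13968 gene symbols that could be named.

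Whole mammary glands of 4-week-old female mice were kept in serum-free organ culture, and RNA was hybridized to CodeLink Mouse Whole Genome arrays, 1 array per group and 7 arrays in all. The culture had a growth promotion phase of 10 days with insulin, prolactin, aldosterone and hydrocortisone, followed in the 24-day groups by a regression phase of 14 days with insulin alone. The question of the study was how the loss of estrogen receptor α or β alters the gland and the lesions formed after DMBA (7,12-dimethylbenz[a]anthracene), a polycyclic hydrocarbon carcinogen that forms DNA adducts once metabolized. DMBA was given at 2 µg/ml on Day 3 for 24 h, so all arrays of treated glands show the tissue long after the exposure.

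The 3 groups of the study were glands of αERKO mice (Esr1 knockout), of βERKO mice (Esr2 knockout) and of wild-type (WT) C57 mice, all after 24 days of culture. Both knockouts were made on a C57BL6/129SV background, so genotype and part of the strain background differ together. The title names DMBA for the WT array only, and the protocol text that the samples share gives DMBA for all 3. Equal amounts of RNA from 5 mice were pooled for each of these 3 arrays. Another 4 arrays came from wild-type glands only. A pair of them held untreated C57 glands at 10 and at 24 days, and the other pair BALB/c glands at 24 days, one cultured with vitamin D5; the labels give no vitamin D5 dose and do not say whether BALB/c glands received DMBA. Mice of the WT, αERKO and βERKO groups were pretreated with progesterone and epidermal growth factor before culture, although the labels also name estradiol with progesterone, and for the remaining arrays the pretreatment is not settled. Glands with lesions (MAL) were taken from WT and βERKO mice. For αERKO glands, which formed none, the methods say that no samples could be taken, while the discussion has glands free of MAL on the array, so genotype and lesions differ together.

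With 1 array per group there is no replicate check and no p-value. Values are log2 of the spot intensity over the median of all gene probes on that array, called the level, and a difference between 2 arrays in these units is called the log2 ratio. To give a scale of measurement error, log2 ratios of pairs of probes for 1 transcript were compared, and their SD is given with each comparison; it covers differences between probes and not between mice. The median gene probe had an intensity of 39.1 for αERKO, 42.3 for the array labelled βERKO and 51.5 for WT with DMBA, and over the 7 arrays from 68.4% to 74.2% of spots were called good by the scanner software. The Esr1 probe was good on the WT array with DMBA and on the BALB/c array with vitamin D5, and near background on the other 5. The Esr2 probe was good on the array labelled βERKO, at a level of 0.87, and on the 24-day C57 array without DMBA, at -0.55, and near background elsewhere, so the targeted gene goes against the label of the βERKO array. Whether these probes lie in the deleted parts of the genes is not given in the sources used here.

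p53 is a transcription factor that is held at a low level by Mdm2, a ubiquitin ligase which is itself a p53 target, and that is stabilized by DNA damage and other stress. Its targets include inhibitors of the cell cycle such as Cdkn1a (p21), death effectors of the Bcl-2 family such as Bax and Bbc3 (Puma), and secreted factors such as Gdf15. p53 itself is regulated mainly as a protein, and mRNA arrays do not measure that; in the mammary gland it acts in the response of epithelium to carcinogens and radiation and in involution.

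p53 binds a response element built from a pair of 10-base units, the p53 consensus decamer, which reads the same on both strands. Promoter windows from RefSeq (GRCm38.p6, 250 bases before to 50 bases after a transcription start) were at hand for 7 of the 10 genes, as 11 windows, and were searched for exact matches to the decamer. A match was found in 5 of the 11 windows, each of a different gene, and in 8.36% of all 32851 windows. The stretches are shown because they are the DNA next to the start of these targets that can be read against the decamer. They are given 5′ to 3′ on the strand of the gene, with matches in capitals.
Cdkn1a: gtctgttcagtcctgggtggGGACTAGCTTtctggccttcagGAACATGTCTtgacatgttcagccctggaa
Bax: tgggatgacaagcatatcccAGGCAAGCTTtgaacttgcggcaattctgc
Mdm2: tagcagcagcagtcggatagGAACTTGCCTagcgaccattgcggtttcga
Ccng1: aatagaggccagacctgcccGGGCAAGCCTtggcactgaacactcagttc
Trp53: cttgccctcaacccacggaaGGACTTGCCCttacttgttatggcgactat

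In Cdkn1a (chr17:29090886-29090957, plus strand) a pair of matches lay in the upstream of its windows. They began 73 and 51 bases before the transcription start of that window, with 12 bases between them. Only exact matches were searched for, and whether this pair forms a response element was not tested. The single match of Bax (chr7:45467070-45467119, minus strand) began 201 bases before its start. That of Mdm2 (chr10:117710915-117710964, minus strand) began 186 bases before the start, and that of Ccng1 (chr11:40755442-40755491, minus strand) 185 bases before. In Trp53 (chr11:69580264-69580313, plus strand) it began 75 bases before. The windows of Bbc3 and Gdf15, and a second window of Cdkn1a at a start further downstream, did not hold these letters. A match is a description of sequence only, since no binding was measured.

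On the αERKO array all 10 genes were at their lowest level of the 7 arrays. The array labelled βERKO was at the other end for 5 of them, Cdkn1a, Gdf15, Mdm2, Ccng1 and Zmat3, and second highest for Bax, Bbc3, Trp53 and Trp53inp1. Among the 5 arrays of WT glands, the array with DMBA was the lowest for 7 genes. All spots were called good except that of Mdm2 on the αERKO array, which was near background, and that of Cdkn1a on the array labelled βERKO, which was marked for a contaminated background.

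**Figure D1:**
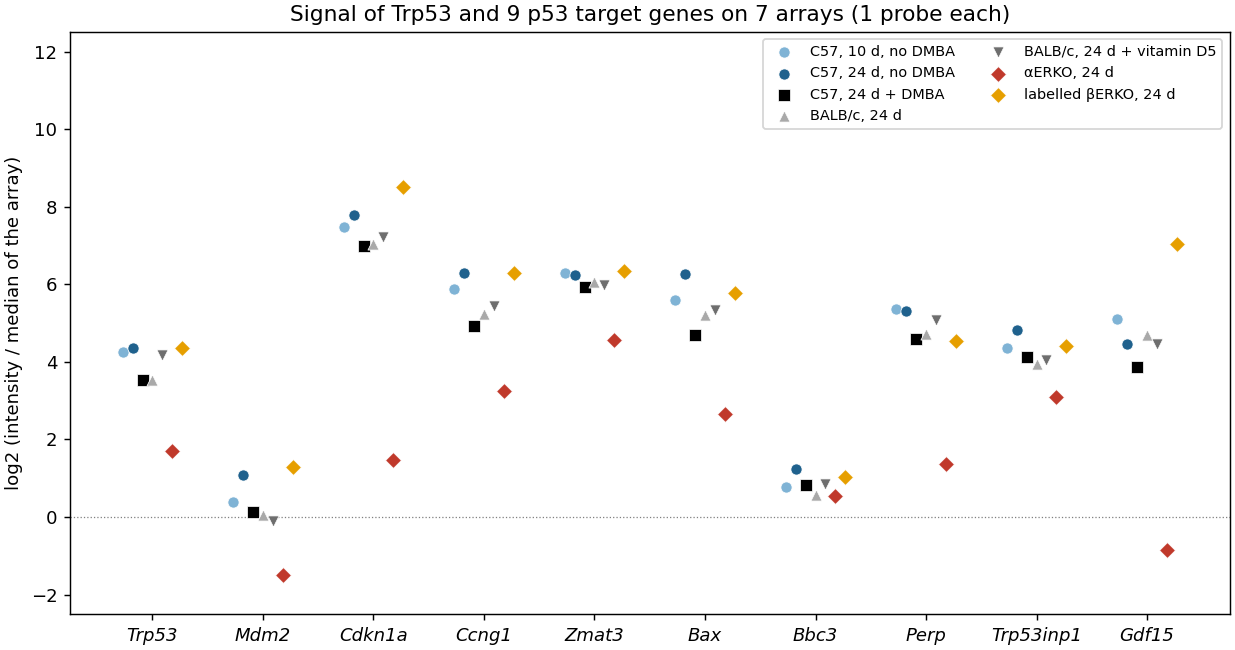
Level of Trp53 and 9 p53 target genes on the 7 arrays, as log2 of intensity over the median of the array (vertical axis, with the median as a dotted line at 0), 1 point per array and gene. The αERKO points lie lowest for all 10 genes, with Bbc3 only 0.02 below the next array, and Cdkn1a and Gdf15 lie furthest apart.

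Trp53 was at 1.71 on the αERKO array and 4.35 on the array labelled βERKO. On C57 glands it was at 3.53 with DMBA, 4.25 at 10 days without DMBA and 4.35 at 24 days without DMBA. BALB/c glands gave 3.54 without and 4.17 with vitamin D5. The transcript of p53 was thus below all other arrays in αERKO glands, and the array labelled βERKO was level with the untreated 24-day C57 array. In αERKO glands Trp53 was 3.54-fold below WT glands with DMBA and 6.24-fold below those labelled βERKO.

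Mdm2, the ligase that marks p53 for degradation, gave a dim spot near the array median. On the αERKO array it was at -1.51, near background, and it was at 1.30 on the array labelled βERKO. C57 glands gave 0.13 with DMBA, 0.40 at 10 days and 1.08 at 24 days without DMBA, and BALB/c glands 0.05 without and -0.12 with vitamin D5. Because the αERKO spot gives only a bound, Mdm2 in αERKO glands was lower than in WT glands with DMBA by at least 3.01-fold, and lower than in glands labelled βERKO by at least 6.80-fold. These bounds are from median scaling. With normexp, a model of background, the log2 ratios of Mdm2 were -0.53 and -1.18, so it was no longer 2-fold below WT.

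Cdkn1a encodes p21, the inhibitor of cyclin-dependent kinases through which p53 arrests the cell cycle, and gave one of the widest spans of the 10 genes. It was at 1.48 on the αERKO array and at 8.51 on the array labelled βERKO. C57 glands were at 6.99 with DMBA, 7.47 at 10 days without DMBA and 7.79 at 24 days without DMBA, and BALB/c glands at 7.03 without and 7.23 with vitamin D5. The other 6 arrays spanned 2.86-fold, while the αERKO array lay 45.7-fold below the lowest of them, WT with DMBA, and 131-fold below the array labelled βERKO. This last value rests on the spot marked for its background, whose local background of 100 was small beside its mean signal of 15541.

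Ccng1, for cyclin G1, a p53 target that acts back on p53 through Mdm2, was at 3.26 on the αERKO array and at 6.30 on the array labelled βERKO. C57 glands gave 4.92 with DMBA, 5.88 at 10 days and 6.29 at 24 days without DMBA, and BALB/c glands 5.23 without and 5.43 with vitamin D5. The array labelled βERKO exceeded the highest WT array by 0.01, which is no separation, and the αERKO array was 1.66 below the lowest. Ccng1 was 3.17-fold lower on the αERKO array than on WT with DMBA.

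Zmat3 encodes an RNA-binding zinc finger protein induced by p53, and it varied little outside αERKO glands. Its level was 4.57 in αERKO glands, 6.35 in those labelled βERKO and 5.93 in C57 glands with DMBA, with 6.29 at 10 days and 6.24 at 24 days without DMBA, and 6.05 and 5.99 in BALB/c glands without and with vitamin D5. The other 6 arrays lay within 1.33-fold of each other, and αERKO was 2.56-fold below the lowest of them.

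Bax, the pore-forming death effector of the mitochondrial outer membrane, was at 2.65 on the αERKO array and at 5.78 on the array labelled βERKO. C57 glands gave 4.70 with DMBA, 5.59 at 10 days and 6.28 at 24 days without DMBA, and BALB/c glands 5.21 without and 5.35 with vitamin D5. Here the highest array was untreated C57 at 24 days and not the array labelled βERKO. Bax was 4.14-fold lower on the αERKO array than on WT with DMBA and 2.98-fold lower on WT with DMBA than on WT without it.

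Bbc3, which encodes the BH3-only protein Puma, gave dim spots and hardly varied. Its intensities ran from 56.5 to 107 over the 7 arrays, beside local backgrounds of 79 to 85. Whether the dim signal limits its range was not tested. It was at 0.53 in αERKO glands, 1.03 in those labelled βERKO and 0.84 in C57 glands with DMBA. Untreated C57 glands gave 0.78 at 10 days and 1.25 at 24 days, and BALB/c glands 0.56 without and 0.85 with vitamin D5. Neither the αERKO array nor the one labelled βERKO stood apart from the WT arrays by more than 0.02. The whole range of the other 6 arrays was 1.62-fold, and αERKO was 1.24-fold below WT with DMBA.

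Perp, a membrane protein of desmosomes that was first described as a p53 effector in cell death, was the one gene at which the array labelled βERKO was low. It was at 1.36 on the αERKO array and 4.54 on the array labelled βERKO. C57 glands gave 4.58 with DMBA, 5.36 at 10 days and 5.30 at 24 days without DMBA, and BALB/c glands 4.72 without and 5.07 with vitamin D5. Perp was 9.33-fold lower on the αERKO array than on WT with DMBA, while WT with DMBA and the array labelled βERKO differed by 0.05.

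Trp53inp1, a stress-induced protein that acts on p53 and in autophagy, was at 3.10 on the αERKO array and 4.42 on the array labelled βERKO. C57 glands were at 4.14 with DMBA, 4.36 at 10 days and 4.83 at 24 days without DMBA, and BALB/c glands at 3.94 without and 4.06 with vitamin D5. The αERKO array was 2.05-fold below WT with DMBA, just past the 2-fold mark, and within 2-fold of both BALB/c arrays. It did not pass that mark with 75th percentile (-0.91), quantile (-0.94) or cyclic loess scaling (-0.83).

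Gdf15 encodes a secreted factor of the TGF-β superfamily that p53 and the integrated stress response both induce. With median scaling it separated the arrays most of the 10 genes. It was at -0.86 on the αERKO array and at 7.03 on the array labelled βERKO. C57 glands gave 3.86 with DMBA, 5.12 at 10 days and 4.45 at 24 days without DMBA, and BALB/c glands 4.70 without and 4.47 with vitamin D5. The arrays of WT glands kept within 1.26 of each other, αERKO was 4.72 below the lowest of them, and the array labelled βERKO was 1.91 above the highest. Against WT with DMBA, Gdf15 was 26.3-fold lower in αERKO glands and 9.01-fold higher in glands labelled βERKO. With normexp its log2 ratio was -3.24 in place of -4.72 for αERKO against WT. For αERKO against the array labelled βERKO it was -6.17 in place of -7.89, and Cdkn1a, at -6.52, was then further apart.

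In αERKO glands against WT glands with DMBA, 9 of the 10 genes were more than 2-fold lower and none was higher. Over all gene probes measured, that is with a good spot on either array, 14.1% were lower and 11.7% higher by this measure. The median log2 ratio of the 10 genes was -1.74, beside -0.09 for all probes, and 9 of the 10 exceeded the SD of 0.60 between probes of 1 transcript (575 pairs). Bbc3, a dim probe at -0.31, was the exception. Of the 9 genes good on both arrays, which leaves out Mdm2, 8 were over 2-fold lower, where 9.65% of all such probes were. The ratios were the largest for Cdkn1a (-5.51), Gdf15 (-4.72) and Perp (-3.22), followed by Bax (-2.05), Trp53 (-1.83), Ccng1 (-1.66), Zmat3 (-1.36) and Trp53inp1 (-1.04). Mdm2 is not ranked, since its dim spot gives only a bound, at least 3.01-fold lower with median scaling. The count was 8 without Trp53inp1 under each of the 3 other scalings, and 8 without Mdm2 with normexp.

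The low values on the αERKO array were found with each WT array as reference. With C57 glands at 10 days as the reference, 9 genes were over 2-fold lower (19.2% of all probes), and likewise 9 with untreated C57 glands at 24 days (20.9%). Against BALB/c glands there were 8 without vitamin D5 (17.9%) and 8 with it (19.1%), Trp53inp1 and Bbc3 being the exceptions. Median log2 ratios of the 10 genes over these 4 references were -2.58, -2.84, -1.90 and -2.32. All 10 genes lay below the whole range of the 5 WT arrays, as did 34.4% of all gene probes. After cyclic loess, a scaling that depends on intensity, 9 did. Without Bbc3, whose margin was 0.02, the margins ran from 0.83 for Trp53inp1 to 5.51 for Cdkn1a.

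Markers of several tissues also differed on the αERKO array. All 11 skeletal muscle markers were over 2-fold higher than on WT with DMBA, with a median log2 ratio of 8.15. Their summed signal was 2548 times the array median, against 11.6 to 14.4 on WT arrays and 55.4 on the array labelled βERKO. Lymphocyte markers were higher for 6 of 8, with a summed signal of 84.5 against 13.7 to 15.9 on WT arrays. Luminal epithelial markers were lower for 4 of 10 (Csn2, Elf5, Krt8 and Cldn3), with a median log2 ratio of -0.85 and a sum of 455 against 638 to 1247 on WT arrays. Basal epithelial markers were lower for 4 of 6, with a median of -1.17 and a sum of 140 against 274 to 780, and macrophage markers for 4 of 5. Fibroblast markers had their highest sum on this array, 420 against 15.6 to 229 on WT arrays, but only Dcn and Lum of 7 were over 2-fold higher than on WT with DMBA, with a median of 0.50. Adipocyte markers summed to 3481 against 327 to 2265, with Cfd and Retn of 9 higher, Lipe lower and a median of 0.35. Squamous markers were 4 higher and 2 lower of 9, and endothelial markers 2 higher and 2 lower of 5. Of 8 stress response genes 3 were lower (Atf3, Sesn2 and Ddit3) and Vegfa was higher, with a median of -0.49. The luminal list did not move as one. Csn2, a milk protein, was near background on the αERKO array, at least 153-fold below WT with DMBA, and Elf5, the alveolar transcription factor, had a log2 ratio of -2.81, while the keratins Krt18 (-0.04) and Krt19 (0.19) and the junction protein Cldn4 (0.01) were level between the arrays. No marker of these lists was at 0 on the αERKO array, and Ms4a1, a B cell marker, was at or below 0 on WT with DMBA. In whole glands fewer cells of a type and less RNA per cell cannot be told apart, and the part that tissue makeup has in the low values was not tested.

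**Figure D2:**
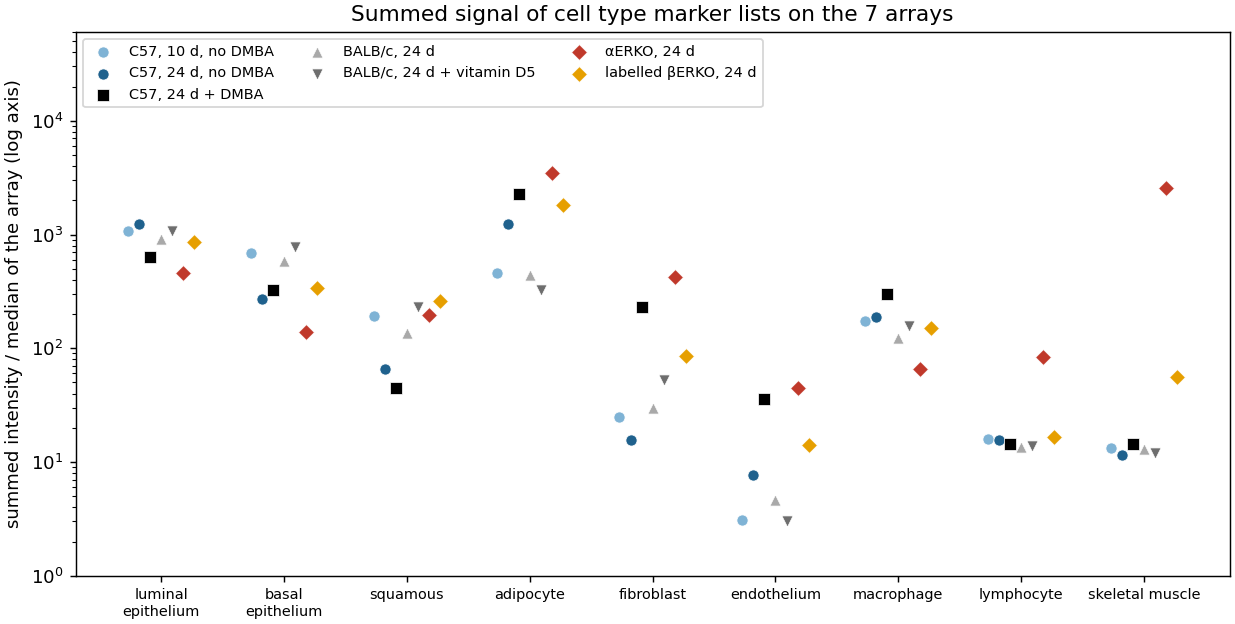
Summed signal of the markers of 9 cell types on the 7 arrays, in multiples of the array median (vertical log axis), 1 point per array and list. The αERKO array stands at 2548 for skeletal muscle where WT arrays stand between 11.6 and 14.4, and is the lowest array for both luminal and basal epithelium.

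On the array labelled βERKO, Gdf15 (3.17), Cdkn1a (1.52), Ccng1 (1.38), Mdm2 (1.17) and Bax (1.08) were over 2-fold higher than on WT with DMBA by log2 ratio. That is 5 of 10 genes, where 6.96% of all gene probes were higher and 8.37% lower, and none of the 10 was over 2-fold lower. Trp53 (0.82), Zmat3 (0.41), Trp53inp1 (0.28) and Bbc3 (0.19) were higher by less, and Perp was at -0.05. The median of the 10 was 0.95 beside 0.09 for all probes, and 7 exceeded the SD of 0.37 between probes of 1 transcript (599 pairs). Among genes good on both arrays, which leaves out Cdkn1a, 4 were over 2-fold higher, where 4.08% of all such probes were. With signals corrected by normexp the count over all 10 genes was 3.

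This count depended on the reference, and WT with DMBA was itself the lowest WT array for 7 of the genes. Against untreated C57 glands at 24 days only Gdf15 was over 2-fold higher, at 2.58 (8.24% of all probes), and the genes split into 5 higher and 5 lower with a median of 0.00. Against C57 glands at 10 days Cdkn1a and Gdf15 were (9.57%). Against BALB/c glands Cdkn1a, Gdf15, Mdm2 and Ccng1 were without vitamin D5 (11.7%), and the first 3 of these with it (10.2%). Gdf15 was over 2-fold higher against all 5 WT arrays. Levels above the whole WT range were found for 5 genes (18.6% of all probes), by 1.91 for Gdf15, 0.72 for Cdkn1a, 0.22 for Mdm2, 0.06 for Zmat3 and 0.01 for Ccng1, and Perp lay below it by 0.05 (16.3%). With 75th percentile scaling and with normexp, 3 genes were above the range.

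Other lists moved on that array too. Squamous keratinocyte markers were 5 higher and 1 lower (Tgm1) of 9 than on WT with DMBA, with a median log2 ratio of 2.24. Their sum was 259 against 44.8 to 230 on WT arrays. Skeletal muscle markers were higher for 6 of 8, with a median of 2.36. Fibroblast markers were lower for 5 of 7 (-1.10), endothelial markers for 4 of 5 (-1.37), adipocyte markers for 3 of 9 (-0.67) and macrophage markers for 2 of 5 (-0.93), and basal epithelial markers were 1 higher and 2 lower of 6. Luminal epithelial markers were 1 higher and 1 lower of 10. Of 8 genes of the integrated and unfolded protein stress response, 3 were higher (Chac1, Ppp1r15a and Vegfa), with a median of 0.94. The part of these in the p53 target levels was not tested.

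Set directly against the array labelled βERKO, the αERKO array differed by more than 2-fold for 9 of the 10 genes, all lower on the αERKO array (16.6% of all probes were lower and 13.5% higher). This comparison shares both of its arrays with those above. The median log2 ratio was -2.92, beside -0.18 for all probes and an SD of 0.56 between probes of 1 transcript (567 pairs). Gdf15 was at -7.89, Cdkn1a at -7.03, Perp at -3.18, Bax at -3.12, Ccng1 at -3.04, Trp53 at -2.64, Zmat3 at -1.77 and Trp53inp1 at -1.32, and Bbc3 was at -0.49. For Mdm2 the dim spot gives only a bound, at least 6.80-fold lower with median scaling. Genes good on both arrays leave out Mdm2 and also Cdkn1a, whose spot was marked for its background. Of these, 7 were over 2-fold lower, where 13.4% of all such probes were. With cyclic loess Trp53inp1, at -0.92, was within 2-fold. Skeletal muscle markers were over 2-fold higher on the αERKO array for 11 of 11, with a median of 7.62, fibroblast markers for 6 of 7 (1.85), lymphocyte markers for 6 of 8 (3.14), adipocyte markers for 4 of 9 (0.81) and endothelial markers for 3 of 5 (1.13). Luminal epithelial markers were lower for 6 of 9, with a median of -1.13, squamous markers for 5 of 9 (-1.20) and stress response genes for 5 of 8 (-1.92). Basal epithelial markers were 1 higher and 3 lower of 6, and macrophage markers 1 higher and 2 lower of 5. Their part in the difference was not tested.

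**Figure D3:**
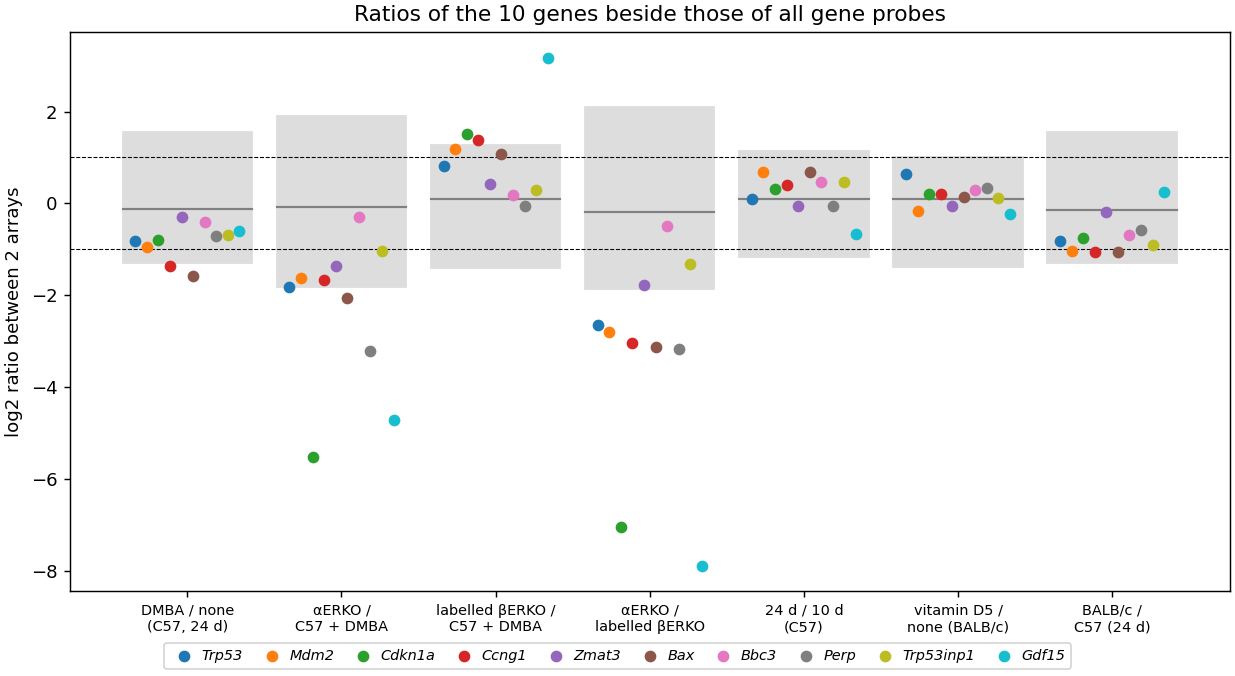
Log2 ratio of each of the 10 genes (coloured points) in 7 comparisons of 2 arrays, with the range from the 5th to the 95th percentile of all gene probes as a grey band, their median as a grey line, and 2-fold as dashed lines. Cdkn1a and Gdf15 fall far below the band for αERKO against both other arrays, and all 10 genes lie below 0 with DMBA (after cyclic loess Zmat3 does not).

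DMBA-treated C57 glands, compared at 24 days with untreated ones, had lower values of all 10 genes, or of 9 after cyclic loess, where Zmat3 was higher, and 8 of them lay within 2-fold. Bax (-1.57) and Ccng1 (-1.37) were over 2-fold lower, which is 2 of 10, where 8.46% of all gene probes were lower and 10.1% higher. Mdm2 (-0.96), Trp53 (-0.82), Cdkn1a (-0.80), Perp (-0.72), Trp53inp1 (-0.70), Gdf15 (-0.59) and Bbc3 (-0.41) were lower by more than the SD of 0.31 between probes of 1 transcript (586 pairs), and Zmat3, at -0.30, was not. The median was -0.76 beside -0.13 for all probes. For the untreated array the pretreatment is not settled, and pooling of RNA is given for the treated array only. DMBA and any difference in these cannot be told apart.

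Tissue markers differed between these arrays as well. All 7 fibroblast markers were over 2-fold higher with DMBA, with a median log2 ratio of 3.04 and a sum of 229 against 15.6. Endothelial markers were higher for 5 of 5 (median 1.92), adipocyte markers for 7 of 9 (1.70), macrophage markers for 4 of 5 (1.29) and basal epithelial markers for 3 of 6 (1.21), with Krt14 lower. Luminal epithelial markers were lower for 4 of 10, with a median of -0.68 and a sum of 638 against 1247, and squamous markers for 4 of 9 (-0.85). Stress response genes were lower for 6 of 8 (Vegfa, Ppp1r15a, Ddit3, Chac1, Atf3 and Atf4), with a median of -1.38. The part of these in the lower p53 target levels was not tested.

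Culture time and vitamin D5 left the 10 genes within 2-fold, and strain did so for 7 of them. From 10 to 24 days without DMBA none of the 10 was over 2-fold apart (12.4% of all probes were), with log2 ratios from -0.67 for Gdf15 to 0.69 for Bax. Vitamin D5 likewise left none over 2-fold apart (12.2%), and the ratios ran from -0.23 for Gdf15 to 0.64 for Trp53. From 10 to 24 days adipocyte markers were higher for 7 of 9, with a median log2 ratio of 2.10. Proliferation genes were lower for 5 of 10 (-1.14) and squamous markers for 5 of 10 (-1.03), and basal epithelial markers were 2 higher and 3 lower of 6. With vitamin D5 squamous markers were higher for 6 of 10 (1.03), fibroblast markers for 3 of 7 (0.88) and luminal epithelial markers for 2 of 10 (0.44). Lower were 1 of 8 adipocyte, 1 of 6 basal epithelial, 1 of 4 macrophage and 1 of 6 endothelial markers. Skeletal muscle markers were 2 higher and 2 lower of 9. In the comparison of times the sign turned for Trp53 under quantile scaling. In that of vitamin D5 it turned for Bax and Trp53inp1 under quantile and cyclic loess scaling, and for Trp53inp1 also under 75th percentile scaling. BALB/c glands were over 2-fold lower than untreated C57 glands at 24 days for Bax (-1.07), Ccng1 (-1.06) and Mdm2 (-1.03), 3 of 10 where 9.33% of all probes were, but none of the 3 passed the mark under 4 other ways of scaling or background correction. Zmat3, at -0.18, was higher in BALB/c glands with 75th percentile, quantile and cyclic loess scaling. Adipocyte markers were lower in BALB/c glands for 7 of 9, with a median log2 ratio of -2.20. Luminal epithelial markers were lower for 3 of 10 (-0.63) and stress response genes for 3 of 8 (-0.59). Macrophage markers were 1 higher (Fcgr1) and 3 lower of 5 (-1.01), and endothelial markers 1 higher (Cdh5) and 3 lower of 6 (-0.87). Basal epithelial markers were higher for 2 of 6 (0.74) and squamous markers for 2 of 9 (0.40). Proliferation genes were higher for 6 of 10 (1.60), and the part of these lists was not tested. Strain and any DMBA in the BALB/c glands cannot be told apart.

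To describe more of the pathway, 57 further genes of p53 signalling were listed, of which 45 were on the array. These were also chosen with earlier results of these data known. Their shares are therefore a description and no independent check on the 10 genes. In αERKO glands against WT with DMBA, 16 of the 42 measured were over 2-fold lower (38.1%, beside 14.1% of all probes) and 2 higher (beside 11.7%), with a median log2 ratio of -0.55. Of genes for arrest 3 of 6 were lower (Btg2, Sfn and Sesn2), of genes for death 3 of 12 (Apaf1, Aen and Ei24), and of repair genes 2 of 7 (Polk and Ercc5). Of the metabolic and secreted targets, Ephx1, Dcxr, Ddit4 and Igfbp3 were lower. None of 3 feedback regulators was lower, and upstream 3 of 8 were (Atm, Hipk2 and Trp63) while Cdkn2a was higher. The other gene that was higher was Ak1. Over the scalings tried the count of lower genes ran from 10 to 16.

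Among these further genes, and of those good on both arrays, Btg2 had the lowest ratio of αERKO to WT. This antiproliferative p53 target was at 0.49 on the αERKO array, 2.92 on WT with DMBA and 3.54 on the array labelled βERKO. Ephx1, microsomal epoxide hydrolase, an enzyme of DMBA metabolism, was at 3.92, 6.08 and 7.49 on the same arrays and at 7.59 on untreated C57 glands at 24 days. Both were picked by the size of their falls on the αERKO array, so αERKO as the lowest of the 3 follows from that choice. The array labelled βERKO was the highest of the 3 for both. Polk, a polymerase that bypasses bulky adducts, had a log2 ratio of -1.92 for αERKO against WT, Aen, an apoptosis-enhancing nuclease, -1.80, and Ak1, an adenylate kinase abundant in skeletal muscle, 1.19.

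On the array labelled βERKO 8 of 42 were over 2-fold higher than on WT with DMBA (19.0%, beside 6.96% of all probes) and 1 lower (8.37% of all probes), with a median of 0.45. With normexp 4 were higher and 0 lower. Gadd45a, which acts in growth arrest and repair, had the largest log2 ratio at 1.73, followed by Igfbp3 (1.55), which binds insulin-like growth factors, then by Plk2, a polo-like kinase at 5.78 against 4.28 by level, and Pmaip1 (1.47), the BH3-only protein Noxa. The level of Pmaip1, at 3.78 on the array labelled βERKO and 2.31 on WT with DMBA, was 3.67 in untreated C57 glands at 24 days, 4.02 at 10 days, and 3.21 and 4.14 in BALB/c glands without and with vitamin D5, so the array labelled βERKO lay within the range of the WT arrays. Between αERKO and the array labelled βERKO 25 of 42 were lower on αERKO (59.5%, beside 16.6% of all probes) and 1 higher (beside 13.5%), with Ephx1 at -3.57, Btg2 at -3.06, and Aen and Polk both at -2.74. Under the other scalings and normexp the count of lower genes lay between 18 and 21.

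With DMBA 5 of 41 were over 2-fold lower (12.2%, beside 8.46% of all probes) and 3 higher (7.32%, beside 10.1%), with a median of -0.33. These shares are near those of all probes. Ephx1 (-1.50), Sfn (-1.45), which encodes the 14-3-3σ protein, and the death genes Tnfrsf10b (-1.38) and Pmaip1 (-1.36) were lower by log2 ratio, and Dram1 (1.48), a lysosomal regulator of autophagy, and Hipk2 (1.30), a kinase of p53, were higher. For time 2 of 41 were higher (6.05% of all probes) and 2 lower (6.34%). With vitamin D5 2 of 44 were higher (5.12%) and 1 lower (7.06%). In BALB/c against C57 glands 2 of 41 were higher (9.17%) and 8 lower (9.33%), but 3 were lower with 75th percentile or cyclic loess scaling, 4 with quantile scaling and 1 with normexp. Proliferation genes, which p53 and p21 restrain, were over 2-fold lower for 0 of 9 and higher for 1 in αERKO glands against WT with DMBA, with a median of -0.21, and for DMBA 3 of 9 were higher (Ccna2, Cdk1 and Top2a).

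**Figure D4:**
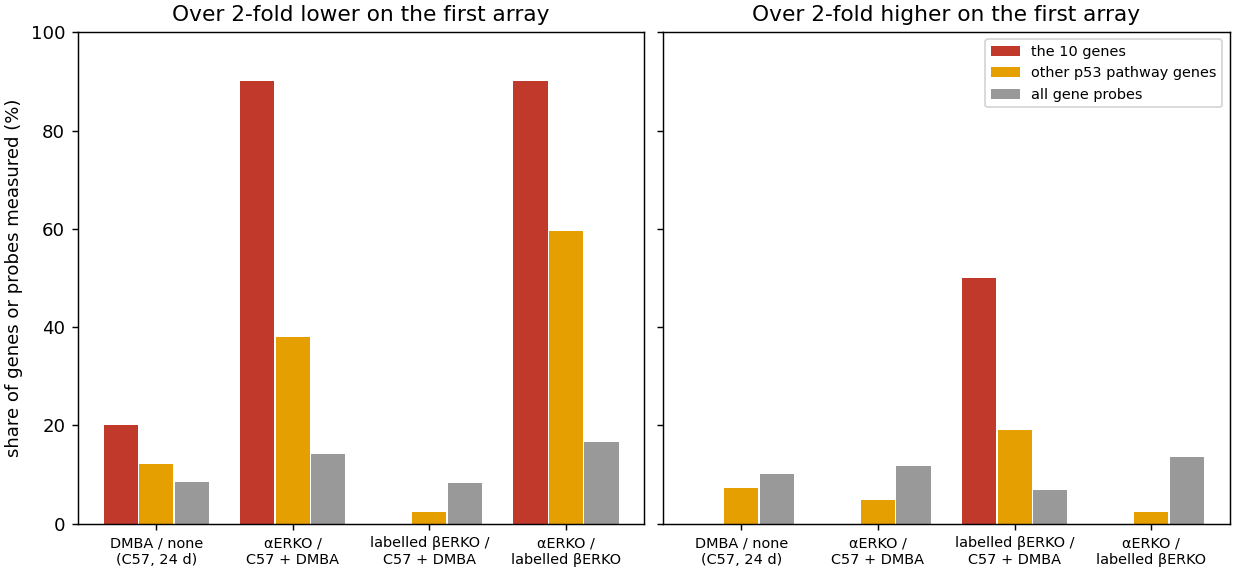
Share of the 10 genes (red), of other p53 pathway genes (orange) and of all gene probes (grey) over 2-fold lower (left) or higher (right) on the first array of 4 comparisons. For αERKO against WT with DMBA, 9 of 10 genes, 38.1% of the other pathway genes and 14.1% of all probes were lower. Both gene lists were chosen with earlier results of these data known.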

How the data were processed

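RNA of cultured mammary glands was measured on 1-colour CodeLink arrays. The authors deposited 1 scanner table per array, in which a spot's intensity is the mean of its pixels minus the local background median, and the CodeLink software grades each spot; no genome build is named. Accessions of 14760 of 15553 RefSeq probes were matched to symbols through RefSeq's gene table (GRCm38.p6). Intensities were divided by the median of the 34967 gene probes of their array, without the 320 negative and 300 positive control spots, and log2 was taken, values at or below 0 being raised to the lowest value above 0. A probe entered a comparison if its spot was good on either array and was counted beyond 2-fold. A spot near background gives a bound, against its own value or the lowest good value of that array, whichever is higher.

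The members and lists were chosen with earlier results of these data known. Among the further p53 pathway genes, which came as lists for arrest, apoptosis, feedback, repair, metabolic and secreted, and upstream genes, those named with values are up to 4 each way with the largest change in the 4 main comparisons among genes over 2-fold and good on both arrays; some others are named where they were counted, and not every counted gene is named. Marker lists covered 9 cell types, proliferation and the stress response. The number of arrays limits the precision, and no test was run. Alternatives were 75th percentile, quantile and cyclic loess scaling, normexp (offset 50), the deposited normalized intensity, the mean of all probes of a gene, and thresholds of 1.5-fold and 3-fold; after seeing the data, Cdkn1a was left out and each other WT array was used as reference. The deposited series table was not used. Counting was tested on simulated data. Python 3.11.15, pandas 2.3.3, numpy 2.4.6, matplotlib 3.10.9, R 4.3.3 and limma 3.58.1 were used.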

Additional observations from a re-analysis of the deposited data

How the results depend on the processing

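No paired analysis was possible because each group has 1 array. Of 350 ratios of the 10 genes recomputed under 5 alternatives, none beyond 2-fold changed sign, and 24 moved by more than the SD between probes of 1 transcript (cyclic loess 9, normexp 8, quantile 7). The counts for αERKO against WT or the array labelled βERKO ran from 7 to 9 genes over all alternatives. For the array labelled βERKO, 5 genes over 2-fold higher than WT with DMBA became 3 with normexp and 1 at 3-fold, and with references chosen after seeing the data 2 (C57 at 10 days), 1 (untreated C57 at 24 days) and 3 (BALB/c with vitamin D5). With DMBA, 2 became 8 at 1.5-fold and 0 at 3-fold. At 1.5-fold, culture time had 3 and vitamin D5 1 in place of 0. The 3 genes of the strain comparison became 0 under 75th percentile, quantile and cyclic loess scaling, normexp and 3-fold, and 7 at 1.5-fold. Scaling to the 75th percentile moved the median of all probes by 0.13 for αERKO against WT, 0.18 for αERKO against the array labelled βERKO and 0.22 for strain. The cause of these moves was not tested. Median intensities lie below the local background, which limits dim probes such as those of Mdm2 and Bbc3 and, on the αERKO array, Gdf15. The mean over the probes of a gene changed nothing, as each gene has 1 probe.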
